A study of Mus musculus with 5 samples.

Results

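Transcription factors that set the lineages of the mammary epithelium were followed in the glands of menopaused mice, 10 genes in all: Foxa1, Cited1, Tbx3, Gata3, Sox9, Elf5, Ehf, Sox10, Trp63 and Id4. They were chosen by symbol, as regulators of the hormone-sensing, alveolar and basal lineages, and are 10 of the 27998 genes counted in the files. Their raw UMIs (unique molecular identifiers, each standing for 1 captured transcript) were read in 6276 epithelial barcodes of 14317 kept barcodes, a barcode being a droplet taken as a cell. All 10 were detected in epithelial barcodes, with sums from 459 UMIs (Trp63) to 55965 UMIs (Cited1).

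The scRNAseq libraries came from the number 4 mammary glands of ovariectomized female BALB/cj mice, 30 weeks old, a surgical model of menopause in which all groups, controls included, lack ovarian hormones of their own. Treatment lasted 1 week, from 20 weeks after ovariectomy. Vehicle was given in OVX and E2 (17β-estradiol, 1 µg per animal) in OVX_E2. In OVX_E2_P4, P4 (progesterone, 0.1 mg per animal) was added to E2. OVX_E2_PBDE and OVX_E2_P4_PBDE received the same hormones with food containing polybrominated diphenyl ethers (PBDEs, flame retardants), at 7.1 mg/kg BDE-47, 0.4 mg/kg BDE-100 and 0.9 mg/kg BDE-153. Food of the other 3 groups carried DMSO, the solvent of the PBDEs, alone. Each group was 1 library of about 4000 loaded cells from dissociated whole glands without sorting, and the number of mice behind a library is not given in the sources used here. There is thus no replicate of any group and no test between groups. The identifiers of the libraries set both PBDE libraries apart from the others. Whether this reflects a batch is not stated, and a batch, if there was one, and PBDEs cannot be told apart.

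The mammary duct is a bilayer of luminal and basal cells. Luminal cells are either hormone-sensing, carrying estrogen and progesterone receptors, or alveolar, the secretory lineage that makes milk, whereas basal cells are contractile and touch the basement membrane. GATA3 and FOXA1 open chromatin for the estrogen receptor, ELF5 drives the alveolar fate downstream of prolactin and progesterone, and the p63 protein encoded by Trp63 maintains the basal fate.

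Barcodes were clustered within each library without the 10 genes and without 43 other mammary transcription factors, here called companion factors, and clusters were named from markers of each type. This gave L-Hor-like cells (hormone-sensing in the plots, 92 to 763 barcodes per library), L-Alv-like cells (alveolar, 124 to 586 barcodes in the 4 libraries with E2), Basal-like cells (60 to 148 barcodes) and cycling cells (38 to 131 barcodes in the 4 libraries with E2). A mixed luminal class (195 to 499 barcodes) carried L-Hor and L-Alv markers together. In OVX, luminal cells other than L-Hor-like fell into a single mixed cluster led by L-Alv markers, so OVX has no L-Alv-like value. Total UMIs per library were 19982067 to 42012988, and 80 barcode sequences were found in more than 1 library, of 14263 different sequences. Fibroblast-like cells (887 to 2566 barcodes) were used as a gauge of free RNA. It is limited for Id4 and Tbx3, whose fibroblast-like levels were above those of L-Alv-like cells in all 4 libraries with E2. In OVX_E2_P4 the gauge is also limited for Cited1 (42.5 CPM, against 40.8 CPM in L-Alv-like cells). Fibroblast-like and L-Alv-like levels of Cited1 also lay close in OVX_E2_P4_PBDE. The gauge is limited for Sox10 too (6.91 CPM in OVX_E2_P4, against 5.22 CPM in L-Hor-like cells). The fibroblast-like level of Sox10 was also above the L-Hor-like level in OVX_E2 and OVX_E2_P4_PBDE. Median depth was 4252 to 7031 UMIs per fibroblast-like barcode, 5540 to 10462 per L-Hor-like and 7206 to 11734 per L-Alv-like barcode. An equal amount of free RNA per barcode gives a higher CPM in shallower barcodes. How much of these low levels was free RNA was not tested. The Krt18 level of Basal-like cells was 2083 CPM (UMIs per 1000000 UMIs of the class) in OVX_E2_P4_PBDE. In the other 4 libraries it was 417 to 679 CPM. Basal-like treatment ratios of Cited1, Trp63, Foxa1, Id4 and Sox10 in OVX_E2_P4_PBDE are therefore given with and without the barcodes rich in luminal keratins. Unless stated, other Basal-like values of that library, ratios to the luminal classes among them, include these barcodes.

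Positions are those of GRCm38 (GENCODE M21). Foxa1 (ENSMUSG00000035451) is at chr12:57540628-57546916 on the minus strand, Cited1 (ENSMUSG00000051159) at chrX:102247381-102252181 on the minus strand, Tbx3 (ENSMUSG00000018604) at chr5:119670669-119684724 on the plus strand and Sox9 (ENSMUSG00000000567) at chr11:112782224-112787760 on the plus strand. Gata3 (ENSMUSG00000015619, chr2:9857078-9890034, minus strand), Ehf (ENSMUSG00000012350, chr2:103263433-103303278, minus strand) and Elf5 (ENSMUSG00000027186, chr2:103411688-103450989, plus strand) share chromosome 2. Elf5 and Ehf, both ETS factors, are neighbours with 108.4 kb and 0 protein-coding genes between them. Sox10 (ENSMUSG00000033006) is at chr15:79154908-79165240 on the minus strand, Trp63 (ENSMUSG00000022510) at chr16:25683763-25892102 on the plus strand and Id4 (ENSMUSG00000021379) at chr13:48261228-48266026 on the plus strand. Of the members, Gata3 alone overlaps a gene of the same strand that the files count, 9230102O04Rik.

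RefSeq promoters (GRCm38.p6, 250 bases before to 50 after a start site) were on hand for 5 of the members. They are shown for Elf5, the member with the highest ratio of L-Alv-like to L-Hor-like level, and for Foxa1 and Cited1, the factors with the closest pair of profiles among the 10. In each run, read 5′ to 3′ on the gene's own strand, capitals mark the match to 1 of 5 searched motifs. The Elf5 promoter is chr2:103411848-103412147 (plus strand), that of Foxa1 chr12:57546062-57546361 (minus strand) and that of Cited1 chrX:102250727-102251026 (minus strand, the most downstream of its start sites in the table).
Elf5: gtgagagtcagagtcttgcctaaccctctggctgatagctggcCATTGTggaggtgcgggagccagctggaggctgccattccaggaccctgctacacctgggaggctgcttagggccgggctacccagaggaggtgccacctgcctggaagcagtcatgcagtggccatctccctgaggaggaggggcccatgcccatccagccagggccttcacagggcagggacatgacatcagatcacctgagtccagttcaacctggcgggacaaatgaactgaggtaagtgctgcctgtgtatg
Foxa1: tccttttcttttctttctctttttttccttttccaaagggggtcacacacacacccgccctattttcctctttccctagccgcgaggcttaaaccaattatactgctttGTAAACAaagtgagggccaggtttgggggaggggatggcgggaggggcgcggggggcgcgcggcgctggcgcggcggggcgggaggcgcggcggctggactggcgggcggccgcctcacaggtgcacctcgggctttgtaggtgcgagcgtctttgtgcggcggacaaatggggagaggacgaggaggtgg
Cited1: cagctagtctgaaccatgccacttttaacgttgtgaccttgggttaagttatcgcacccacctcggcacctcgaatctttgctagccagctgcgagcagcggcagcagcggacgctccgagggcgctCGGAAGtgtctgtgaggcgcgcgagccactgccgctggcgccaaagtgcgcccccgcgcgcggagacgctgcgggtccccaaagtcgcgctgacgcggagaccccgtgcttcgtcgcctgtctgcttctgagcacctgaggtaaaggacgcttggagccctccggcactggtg
The motifs were searched on both strands in 32851 promoters of that length. GATA factors bind AGATAA, which 11.2% of the promoters held. Forkhead factors bind TGTTTAC, held by 3.65% of them. The ETS core was searched as CGGAAG and found in 16.9% of promoters. For SOX factors the letters were ACAATG, present in 12.6%, and for STAT factors TTCNNNGAA, present in 8.30%. The Elf5 promoter held the SOX letters on the other strand, 207 to 202 bases before the start site. That of Foxa1 held the forkhead letters on the other strand, 141 to 135 bases before the start, and that of Cited1 the ETS letters on its own strand, 123 to 118 bases before the start. The other 5 promoters in the table for these genes (the downstream start of Elf5, the upstream starts of Cited1, and Gata3 and Id4) held none of these letters. No match overlapped another.

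**Figure D1:**
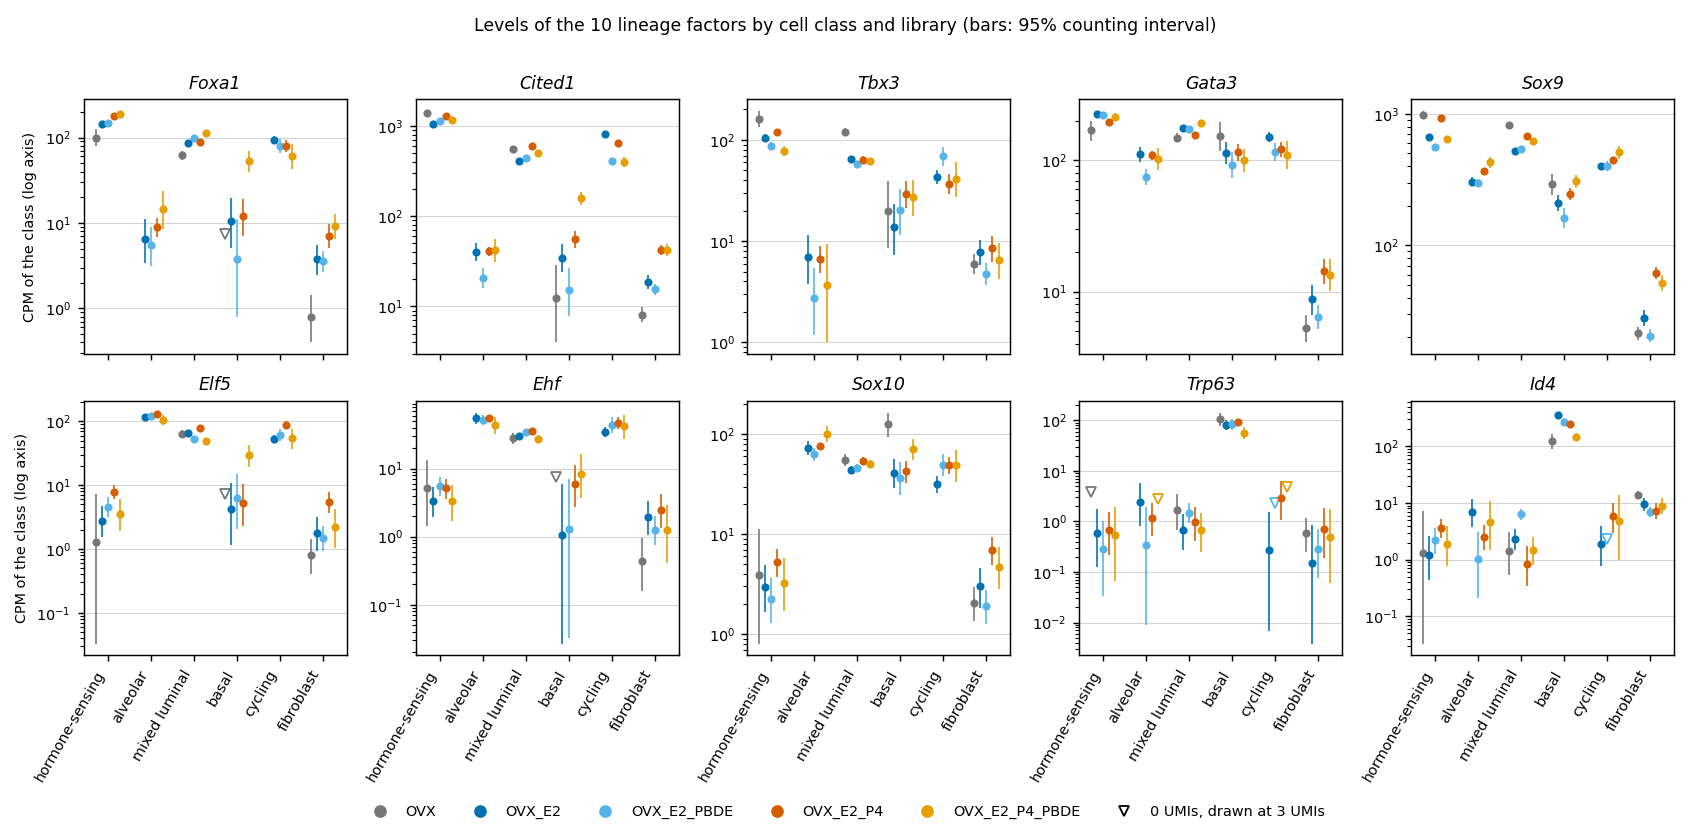
Level of each lineage factor (CPM of the class on a log axis) by cell class, with 1 point per library and bars for the 95% counting interval; an open triangle marks 0 UMIs, drawn at the level of 3 UMIs. Cited1 in hormone-sensing cells sits between 1055 and 1370 CPM in all 5 libraries, and Elf5 in alveolar cells between 107 and 129 CPM in the 4 libraries with an alveolar class.

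Foxa1, Cited1 and Tbx3 were the factors of L-Hor-like cells. Each was at least 12.9-fold higher there than in L-Alv-like cells in all 4 libraries with E2. Levels are given as CPM throughout, with exact Poisson 95% intervals for counting error only, since UMIs of 1 library are not replicates.

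Foxa1, the pioneer factor of the estrogen receptor, stood in L-Hor-like cells at 99.6 CPM (78.6 to 124) in OVX, 142 in OVX_E2, 178 in OVX_E2_P4, 146 in OVX_E2_PBDE and 190 (176 to 204) in OVX_E2_P4_PBDE. The vehicle library was thus the lowest and its interval did not reach those of the other 4. In L-Alv-like cells Foxa1 was at 5.52 to 14.7 CPM, beside 3.60 to 9.23 CPM in fibroblast-like cells of the same 4 libraries. The L-Hor-like level was 12.9 to 26.4 times the L-Alv-like level.

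Cited1, a transcriptional co-activator that binds the estrogen receptor, had L-Hor-like levels of 1370 CPM (1289 to 1455) in OVX, 1055 (1027 to 1084) in OVX_E2, 1285 in OVX_E2_P4, 1121 in OVX_E2_PBDE and 1166 in OVX_E2_P4_PBDE. OVX and OVX_E2_P4 were the high libraries and OVX_E2 the low one, a span far smaller than the step between lineages. Across the 4 libraries with E2, L-Hor-like cells had 26.1 to 54.1 times the L-Alv-like level. L-Alv-like levels were 20.7 to 42.3 CPM, beside 15.5 to 42.5 CPM in fibroblast-like cells.

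Tbx3, a T-box repressor needed to form mammary buds, was highest in OVX, at 162 CPM (135 to 193) in L-Hor-like cells. It was at 106 CPM in OVX_E2, 120 in OVX_E2_P4, 87.6 in OVX_E2_PBDE and 78.4 (69.6 to 88.0) in OVX_E2_P4_PBDE. Both PBDE libraries lay below both of the other libraries with E2. L-Alv-like cells had 2.76 to 6.91 CPM, in each library below the fibroblast-like level (4.79 to 8.51 CPM), and the ratio of L-Hor-like to L-Alv-like levels was 15.3 to 31.7.

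Gata3 and Sox9 were shared by all epithelial classes, with a smaller lean to L-Hor-like cells. Gata3, which specifies luminal fate, was at 170 CPM (142 to 201) in L-Hor-like cells of OVX, 224 (211 to 238) in OVX_E2, 196 in OVX_E2_P4, 222 in OVX_E2_PBDE and 213 in OVX_E2_P4_PBDE. L-Alv-like cells had 112, 74.6, 109 and 103 CPM in OVX_E2, OVX_E2_PBDE, OVX_E2_P4 and OVX_E2_P4_PBDE, and Basal-like cells 92.9 to 153 CPM over the 5 libraries. The ratio of L-Hor-like to L-Alv-like levels was 1.79 to 2.98 and passed 2 in 3 of the 4 libraries. Basal-like and L-Alv-like levels lay close, with ratios of 0.97 to 1.25. Gata3 was also found in hematopoietic cells (25.2 to 72.2 CPM).

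Sox9, an HMG-box factor of luminal progenitors, was at 978 CPM (910 to 1050) in L-Hor-like cells of OVX, 669 in OVX_E2, 934 in OVX_E2_P4, 559 (541 to 576) in OVX_E2_PBDE and 648 in OVX_E2_P4_PBDE. OVX and OVX_E2_P4 were high and the 3 others lower, and no interval of the former met one of the latter. In L-Alv-like cells the levels were 304, 298, 367 and 429 CPM in OVX_E2, OVX_E2_PBDE, OVX_E2_P4 and OVX_E2_P4_PBDE, and the ratio of L-Hor-like to L-Alv-like levels was 1.51 to 2.55. Basal-like cells had 162 to 307 CPM and fibroblast-like cells 20.7 to 62.2 CPM.

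Elf5, Ehf and Sox10 were the factors of L-Alv-like cells. Elf5, the ETS factor of alveolar differentiation, was at 116 CPM (102 to 132) in L-Alv-like cells of OVX_E2, 129 in OVX_E2_P4, 121 in OVX_E2_PBDE and 107 (88.2 to 128) in OVX_E2_P4_PBDE, and all 4 intervals overlapped. In L-Hor-like cells it was at 1.29, 2.78, 4.62, 7.90 and 3.55 CPM in OVX, OVX_E2, OVX_E2_PBDE, OVX_E2_P4 and OVX_E2_P4_PBDE, beside 0.801, 1.80, 1.48, 5.50 and 2.25 CPM in fibroblast-like cells. The L-Alv-like level was 16.4 to 41.8 times the L-Hor-like level.

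Its neighbour Ehf, another epithelial ETS factor, was likewise higher in L-Alv-like than in L-Hor-like cells in all 4 libraries with E2. L-Alv-like levels were 55.3 CPM (45.5 to 66.5) in OVX_E2, 56 in OVX_E2_P4, 52.1 in OVX_E2_PBDE and 43.3 (31.8 to 57.5) in OVX_E2_P4_PBDE. Those of L-Hor-like cells were 3.28 to 5.60 CPM, a ratio of 9.32 to 16.3. Over 35 class-by-library sums the log2(CPM + 1) values of Elf5 and Ehf had a Pearson correlation of 0.909. These sums share libraries and depth, so the correlation is a description of the classes and no test.

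Sox10, known from neural crest and glia and from mammary progenitors, was the member that L-Alv-like and Basal-like cells had in common. In L-Alv-like cells it stood at 73.5 CPM (62.2 to 86.3) in OVX_E2, 75.6 in OVX_E2_P4, 63.2 in OVX_E2_PBDE and 101 (83.2 to 122) in OVX_E2_P4_PBDE. In Basal-like cells it stood at 126 CPM (93.6 to 165) in OVX, 41.1 in OVX_E2, 42.5 in OVX_E2_P4, 36.9 in OVX_E2_PBDE and 71.6 (55.6 to 90.8) in OVX_E2_P4_PBDE. L-Hor-like cells had 2.24 to 5.22 CPM, beside 1.90 to 6.91 CPM in fibroblast-like cells. The part of free RNA in the L-Hor-like level was not tested. Basal-like levels were 8.13 to 21.8 times those of L-Hor-like cells and 0.559 to 0.707 times those of L-Alv-like cells in the 4 libraries with E2.

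**Figure D2:**
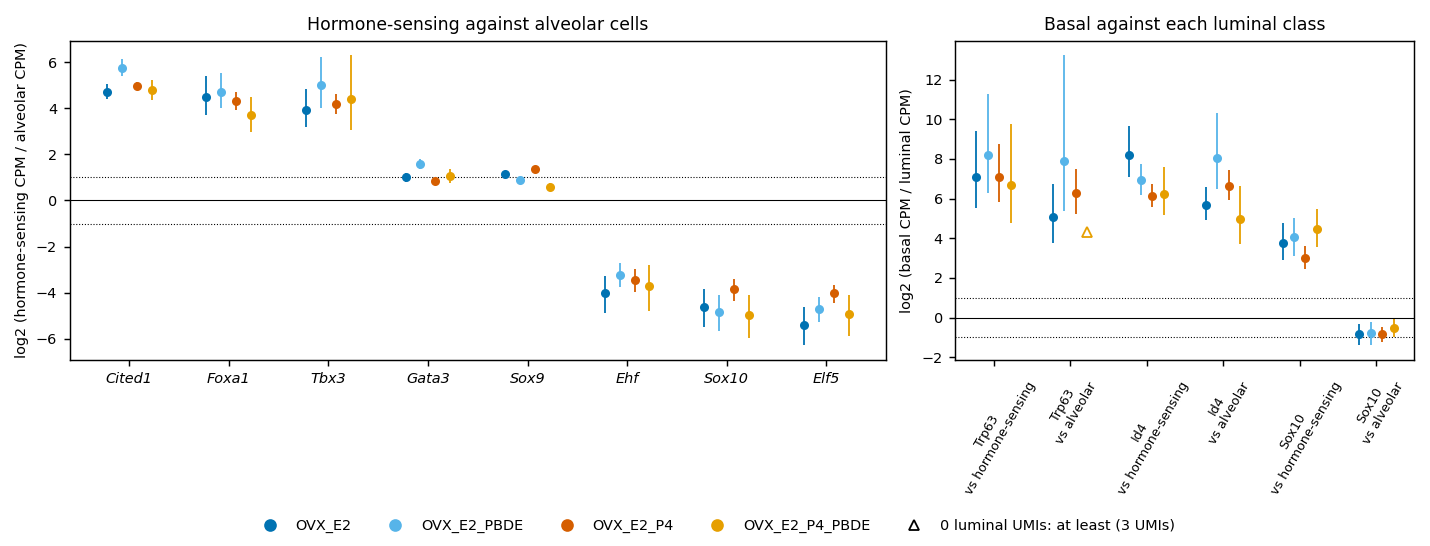
Log2 ratios of class levels in each of the 4 libraries with E2, with 95% counting intervals; left, hormone-sensing to alveolar; right, basal to each luminal class, where an upward triangle is a lower bound set with 3 UMIs for a class at 0, and dotted lines mark 2-fold. Cited1, Foxa1 and Tbx3 lie above and Elf5, Ehf and Sox10 below the 2-fold lines in all 4 libraries, whereas Gata3 and Sox9 lie near the upper line.

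Trp63 and Id4 were the factors of Basal-like cells. Trp63 was at 106 CPM (76.7 to 143) in Basal-like cells of OVX, 82.2 in OVX_E2, 91.6 in OVX_E2_P4, 82.7 in OVX_E2_PBDE and 55.8 (41.8 to 73.0) in OVX_E2_P4_PBDE. No other class passed 2.96 CPM in any library. The Basal-like level was 102 to 296 times that of L-Hor-like cells in the 4 libraries with E2. Against L-Alv-like cells it was 33.3 to 240 times higher in 3 libraries and at least 20.2-fold higher in OVX_E2_P4_PBDE, where L-Alv-like cells had 0 Trp63 UMIs and 3 UMIs were taken as the floor. Over the 4 libraries, L-Hor-like cells had 12 and L-Alv-like cells 14 Trp63 UMIs in all, so the size of these ratios is loosely set.

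Id4, an inhibitor of helix-loop-helix factors that represses estrogen receptor expression, was at 123 CPM (91.5 to 162) in Basal-like cells of OVX, 355 (318 to 395) in OVX_E2, 252 in OVX_E2_P4, 274 in OVX_E2_PBDE and 145 (122 to 172) in OVX_E2_P4_PBDE. OVX and OVX_E2_P4_PBDE were the low libraries. Basal-like cells had 69.8 to 298 times the level of L-Hor-like cells and 31.6 to 264 times that of L-Alv-like cells. These ratios rest on 56 Id4 UMIs in L-Hor-like and 39 in L-Alv-like cells over the 4 libraries with E2. The luminal levels there were 1.04 to 6.91 CPM, below those of fibroblast-like cells. Id4 was the member with the largest part of its UMIs outside the epithelium: 66.9% lay in epithelial barcodes, against 94.6 to 98.1% for the other 9. Endothelial cells held it at 99.1 to 146 CPM, and fibroblast-like cells at 6.98 to 14.1 CPM.

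Read against all genes, the lineage steps counted as follows. Among genes with at least 50 UMIs over the classes compared in each of the 4 libraries with E2, 10.2% were at least 2-fold higher in L-Hor-like than in L-Alv-like cells in all 4, as were Foxa1, Tbx3 and Cited1 of the 8 members with enough UMIs. In the other direction the share was 5.45% of genes, and the members were Elf5, Ehf and Sox10. At least 2-fold above both luminal classes in Basal-like cells were 2.98% of genes and, of the 10 members, Trp63 and Id4. At least 2-fold below both luminal classes were 0.725% of genes and 0 members. Without the 20% of barcodes of each library with the highest Scrublet score (a measure of likeness to simulated doublets), Trp63 had fewer than 50 UMIs in 1 of the libraries and only Id4 was counted in Basal-like cells, while the same 6 members were counted between the luminal classes.

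The share of barcodes with a UMI, after each barcode was thinned to 3000 UMIs, was in most cases highest in the class with the highest level. Foxa1 was seen in 33.5 to 40.4% of L-Hor-like barcodes in the 4 libraries with E2 and in 20.7% (exact binomial interval 12.9 to 30.4%) in OVX, beside at most 3.04% of fibroblast-like barcodes. Cited1 was seen in 78.0 to 87.0% of L-Hor-like barcodes and in 2.38 to 11.3% of fibroblast-like ones. Elf5 was seen in 25.5 to 32.8% of L-Alv-like barcodes and in 0.312 to 1.16% of fibroblast-like ones. Trp63 was seen in 17.2 to 25.0% of Basal-like barcodes and in at most 0.226% of fibroblast-like ones. Unthinned, these shares were 46.7 to 73.0%, 89.1 to 97.4%, 50 to 70.3% and 43.3 to 53.5%. The class with the highest share was the class with the highest level in 39 of 40 pairs of a member and an E2 library, and in 38 without thinning.

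Mixed luminal barcodes held the L-Hor and the L-Alv factors together, at levels between those of both classes. For the 8 members with a mean of at least 20 CPM, the mixed level lay between the L-Hor-like and L-Alv-like levels in all 4 libraries with E2, at 0.751 to 1.49 times their mean. Cited1 was lowest against that mean (0.751 to 0.893), and Tbx3 ranged widest (1.01 to 1.49). Elf5 was at 66.9, 52.5, 78.4 and 48.7 CPM in OVX_E2, OVX_E2_PBDE, OVX_E2_P4 and OVX_E2_P4_PBDE, and at 64.2 CPM in the mixed cluster of OVX. The class pools 2 clusters in OVX_E2_PBDE and 2 in OVX_E2_P4. In OVX_E2_PBDE, Cited1 was at 615 CPM in one and 275 CPM in the other, and Elf5 at 38.5 and 65.0 CPM. In OVX_E2_P4, Cited1 was at 755 and 402 CPM and Elf5 at 59.5 and 100.5 CPM. The cluster of each pair with more Cited1 had 3 L-Hor markers and 0 L-Alv markers among its 10 leading genes.

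At 3000 UMIs per barcode, Cited1 and Elf5 were found in the same barcode in 7.41 to 11.7% of mixed luminal barcodes, against 0 to 1.31% of L-Hor-like and 2.07 to 4.90% of L-Alv-like barcodes. For Foxa1 and Elf5, a pair with lower free RNA, these ranges were 1.54 to 5.08%, 0 to 1.05% and 0 to 0.341%. The median depth was 15302 to 25558 UMIs per barcode in the mixed class, 5540 to 10462 in L-Hor-like and 7206 to 11734 in L-Alv-like cells. Of the mixed luminal barcodes, 27.3 to 78.8% in the 4 libraries with E2 and 15.4% in OVX were among the 20% with the highest Scrublet score of their library, against 4.43 to 7.08% of L-Hor-like and 5.63 to 7.26% of L-Alv-like barcodes in the libraries with E2. Over all genes, log levels of the mixed clusters in the libraries with E2 had correlations of 0.995 to 0.998 with the mean of both luminal classes. No such value was computed for other classes. How much of the mixed levels came from droplets with more than 1 cell was not tested. The 6 lineage calls above also held when mixed barcodes were assigned to the luminal class whose markers held more UMIs.

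**Figure D3:**
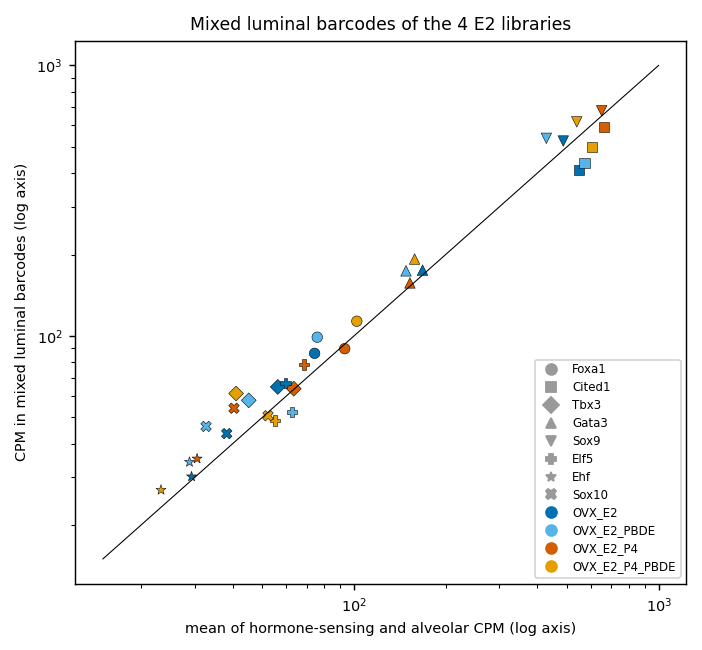
Level of each lineage factor in mixed luminal cells against the mean of its hormone-sensing and alveolar levels (CPM, log axes). Points are the 8 members with a mean of at least 20 CPM in the 4 libraries with E2, and the line marks equal levels. Mixed levels lie at 0.751 to 1.49 times that mean.

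Cycling cells, found in the 4 libraries with E2, had factors of both luminal lineages when summed as a class. Cited1 was at 805, 404, 650 and 396 CPM in OVX_E2, OVX_E2_PBDE, OVX_E2_P4 and OVX_E2_P4_PBDE, so that both PBDE libraries were lower. Elf5 was at 53.8, 62.5, 88.0 and 54.3 CPM, with OVX_E2_P4 highest. Foxa1 was at 60.7 to 94.5 CPM, Sox10 at 31.6 to 49.5 CPM, and Trp63 at 0 to 2.90 CPM. The cycling class of OVX_E2_P4_PBDE had 38 barcodes, fewer than the 40 set for a comparison. After thinning, Cited1 and Elf5 were found together in 2.63 to 9.68% of cycling barcodes, and Foxa1 and Elf5 in 0 to 4.30%. The median depth was 13856 to 29332 UMIs per barcode. Of the cycling barcodes, 26.3 to 44.1% were among those with the highest Scrublet scores. Whether single cycling cells carried both programs was not tested.

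The first treatment question was what E2 did in glands without ovarian hormones. In L-Hor-like cells, Tbx3 had the only member ratio past 1.5-fold of 5 with at least 50 UMIs, at 0.653 (0.536 to 0.80) of the vehicle level, while 30.9% of genes were past 1.5-fold in either direction. Foxa1 was at 1.43 times (1.13 to 1.83) and Gata3 at 1.32 times (1.10 to 1.60) the vehicle level, Cited1 at 0.770 and Sox9 at 0.684. The median gene was at -0.24 on the log2 scale. With median-of-ratios size factors, which take up that shift, Foxa1 (1.75) and Gata3 (1.62) were past 1.5-fold and Tbx3 (0.799) was not, with all 5 directions as before. Foxa1 in fibroblast-like cells was at 4.69 times (2.23 to 10.6) the vehicle level, from 0.801 and 3.75 CPM, and the part of free RNA in the L-Hor-like ratio was not tested.

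In Basal-like cells with E2, Id4 was at 2.88 times (2.14 to 3.96) the vehicle level, from 50 UMIs in OVX and 337 in OVX_E2. Sox10 was at 0.327 times (0.210 to 0.506), from 51 and 39 UMIs. These were 2 of 5 members tested, where 39.1% of genes were past 1.5-fold. Both values changed little with size factors (3.20 and 0.363) and without barcodes rich in luminal keratins (2.81 and 0.345).

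P4 added to E2 left the factors of L-Alv-like cells close to their levels. Of 8 members tested in L-Alv-like cells 0 were past 1.5-fold, against 12.2% of genes. Foxa1 was past it with size factors, without the highest Scrublet scores, with each barcode weighted equally (as was Cited1) and in the larger of the 2 clusters pooled as L-Alv-like in OVX_E2_P4. Elf5 was at 1.11 times (0.961 to 1.29), Ehf at 1.01 times (0.819 to 1.26), Sox10 at 1.03 times (0.855 to 1.24) and Sox9 at 1.20 times (1.10 to 1.32) the level with E2 alone. In L-Hor-like cells Elf5 (2.84, 1.57 to 5.51), Ehf (1.51, 0.829 to 2.84) and Sox10 (1.75, 0.944 to 3.42) were past 1.5-fold of 8 tested, with 9.88% of genes. These are the alveolar factors at low levels, from 14, 17 and 15 UMIs in OVX_E2 and 59, 38 and 39 in OVX_E2_P4. They reached the minimum of 50 UMIs mostly through OVX_E2_P4, where they were higher, so the count of 3 is shaped by that minimum. In fibroblast-like cells the same ratios were 3.05, 1.27 and 2.30. Of the 3, Elf5 alone was past 1.5-fold at a clustering resolution of 1.0. Elf5 was also past it with at most 5% mitochondrial UMIs and without the highest Scrublet scores. In these settings 6 members were tested, and Ehf and Sox10 had too few UMIs to be counted. Ehf was not past it with each barcode weighted equally, nor Sox10 with the fibroblast-like level subtracted. The part of free RNA in them was not tested. The factors of L-Hor-like cells themselves were at 1.14 (Tbx3), 1.22 (Cited1) and 1.25 (Foxa1) times their level with E2 alone. Of the shared factors, Sox9 was at 1.40 and Gata3 at 0.875 times. In fibroblast-like cells the ratios were 1.09 (Tbx3), 2.29 (Cited1), 1.89 (Foxa1), 2.20 (Sox9) and 1.65 (Gata3).

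In Basal-like cells, P4 added to E2 gave Tbx3 at 2.13 times (1.13 to 4.31) and Cited1 at 1.60 times (1.06 to 2.48), 2 of 7 members tested with 15.1% of genes past 1.5-fold. Cited1 in fibroblast-like cells was at 2.29 times, and with the fibroblast-like level subtracted the Basal-like ratio of Cited1 was 0.817, in the other direction. This subtraction took no account of depth and may take away too much. In OVX_E2 and OVX_E2_P4 the median was 11465 and 8373 UMIs per Basal-like barcode. It was 6643 and 5590 per fibroblast-like barcode. Without barcodes rich in luminal keratins, Tbx3 was at 1.42 times with 39 UMIs, and Cited1 at 1.24 times. Without the highest Scrublet scores, 0 of 6 members tested were past 1.5-fold, with Cited1 at 1.42 times. Trp63 was at 1.11 times (0.838 to 1.49) and Id4 at 0.710 times (0.612 to 0.825) the level with E2 alone.

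**Figure D4:**
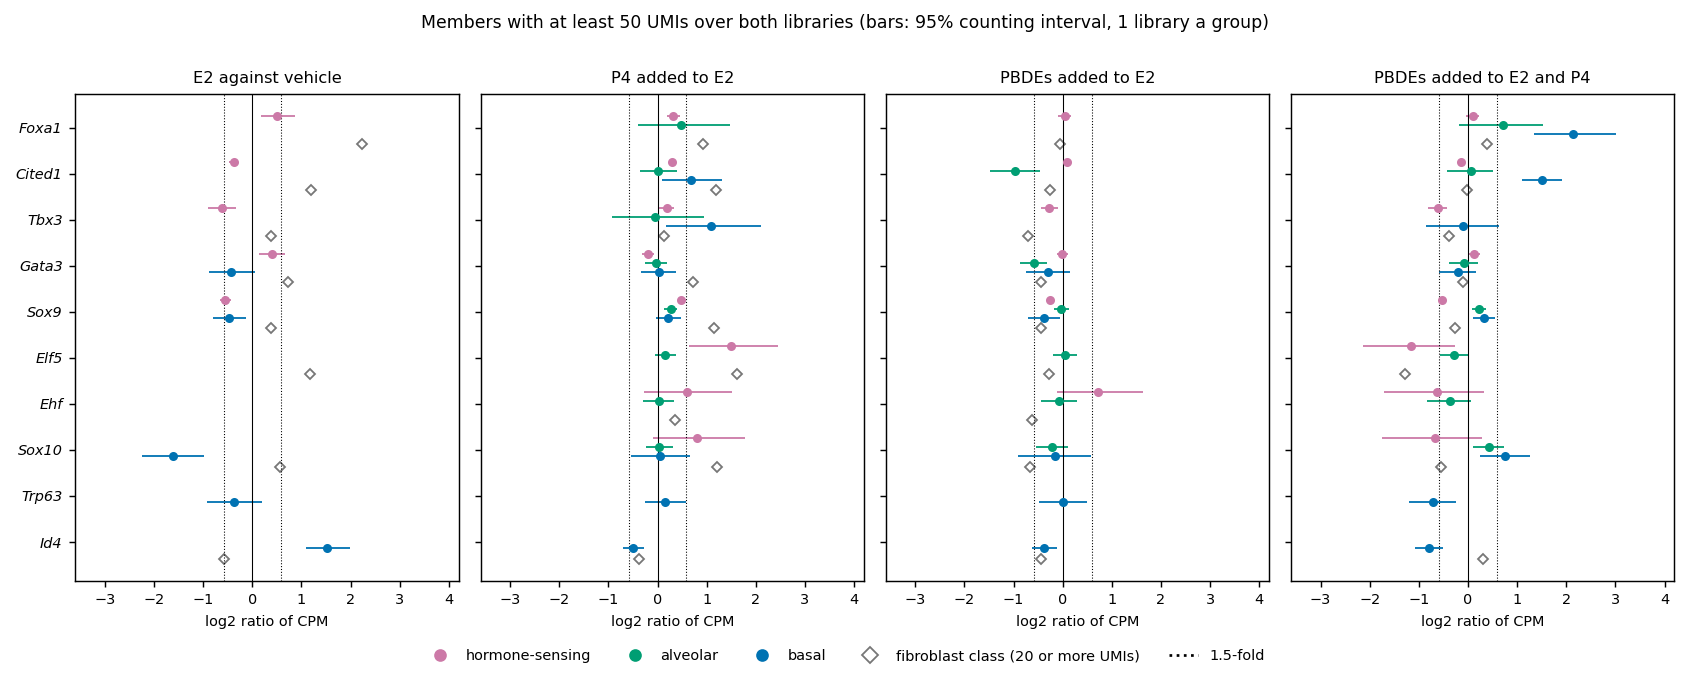
Ratio of each lineage factor's level in 4 pairs of libraries (log2 axis), by cell class, with 95% counting intervals and dotted lines at 1.5-fold. In basal cells with PBDEs added to E2 and P4, Foxa1 is at 4.41 and Cited1 at 2.83 times the level without PBDEs. These values include barcodes rich in luminal keratins. Without them Cited1 is at 0.986 times, and Foxa1 at 3.67 times on 9 and 8 UMIs. In alveolar cells with P4 added to E2 no factor passes the dotted lines.

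With PBDEs added to E2, the L-Hor-like values of Foxa1 (1.03), Cited1 (1.06) and Gata3 (0.990) were close to the level without PBDEs. Ehf was the single member past 1.5-fold of 6 tested in these cells, at 1.66 times (0.917 to 3.11) on 40 and 17 UMIs, with 10.2% of genes past it. In L-Alv-like cells Gata3 was at 0.666 times (0.550 to 0.806) and Cited1 at 0.512 times (0.361 to 0.723), 2 of 6 members tested with 11.9% of genes. With each barcode weighted equally, Ehf, Gata3 and Cited1 were not past 1.5-fold. Nor was Gata3 with size factors, or Cited1 (0.677) without the highest Scrublet scores. Elf5 in L-Alv-like cells was at 1.04 times (0.878 to 1.23). In Basal-like cells 0 of 5 members and 14.4% of genes were past 1.5-fold, with Trp63 at 1.01 times (0.713 to 1.42) and Id4 at 0.771 times (0.646 to 0.917). At a resolution of 1.0, Foxa1, Cited1 and Id4 were past 1.5-fold there, 3 of 7 members tested with 22.8% of genes. With at most 5% mitochondrial UMIs these and Sox9 were past it, 4 of 7 tested with 29.55% of genes.

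With PBDEs added to E2 and P4, 4 of 8 members tested were past 1.5-fold in L-Hor-like cells, with 13.2% of genes. Tbx3, the best counted of the 4, was at 0.652 times (0.569 to 0.746) on 287 and 898 UMIs. Elf5 was at 0.450 times (0.226 to 0.829), and Ehf (0.644, 0.307 to 1.26) and Sox10 (0.628, 0.299 to 1.22) had intervals that held 1. Elf5, Ehf and Sox10 had 13, 12 and 12 UMIs in OVX_E2_P4_PBDE and 59, 38 and 39 in OVX_E2_P4. They reached the minimum of 50 UMIs mostly through OVX_E2_P4, the library that also served the comparison with P4. The count of 4 is shaped by this and is not independent of the count with P4. In fibroblast-like cells Elf5, Ehf and Sox10 were at 0.408, 0.502 and 0.685 times the level without PBDEs. With size factors, Elf5 alone stayed past 1.5-fold, with Tbx3 at 0.703, Ehf at 0.695 and Sox10 at 0.677 times. Elf5 and Tbx3 alone were past it with the fibroblast-like level subtracted. Both were also past it with at most 5% mitochondrial UMIs and without the highest Scrublet scores. In the latter settings 6 members were tested, and Ehf and Sox10 had too few UMIs to be counted. Sox10 was not past it with each barcode weighted equally. In L-Alv-like cells Foxa1 was at 1.65 times (0.885 to 2.90) on 16 and 60 UMIs, 1 of 7 tested with 19.1% of genes, while Elf5 was at 0.825 times (0.674 to 1.00) and Sox10 at 1.34 times (1.08 to 1.65).

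In Basal-like cells with PBDEs added to E2 and P4, 5 of 8 members tested and 24.3% of genes were past 1.5-fold. Foxa1 was at 4.41 times (2.53 to 8.02), on 50 UMIs in OVX_E2_P4_PBDE and 18 in OVX_E2_P4. Cited1 was at 2.83 times (2.15 to 3.75) and Sox10 at 1.69 times (1.18 to 2.41), whereas Trp63 was at 0.609 times (0.435 to 0.842) and Id4 at 0.576 times (0.471 to 0.702) the level without PBDEs. The luminal keratins Krt8, Krt18 and Krt19 held 63.5% of the keratin UMIs of this class, against 12.1 to 31.8% in the other 4 libraries. Of its 64 barcodes, 26 had over 50% luminal keratin, against 2 of 60, 8 of 71, 2 of 64 and 21 of 148 in OVX, OVX_E2, OVX_E2_PBDE and OVX_E2_P4.

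Without these barcodes, Cited1 in Basal-like cells was at 33.4 CPM in OVX_E2_P4_PBDE and 33.9 CPM in OVX_E2_P4, a ratio of 0.986 (0.486 to 1.87), and Trp63 at 92.5 and 96.2 CPM, a ratio of 0.962 (0.644 to 1.41). Foxa1 was at 23.1 CPM from 9 UMIs, against 6.31 CPM from 8 UMIs, a ratio of 3.67 (1.26 to 10.9). Id4 was at 0.624 times (0.472 to 0.814) and Sox10 at 1.63 times (0.987 to 2.63). Leaving out barcodes by their luminal keratins also takes away luminal transcripts by construction, and the 38 barcodes that were left are under the 40 set for a comparison, so these values are a description. Of the 64 barcodes, 32.8% were among those with the highest Scrublet scores, against 7.81 to 19.7% of Basal-like barcodes in the other 4 libraries. Without them, 3 of 6 members tested were past 1.5-fold, Cited1 (2.38), Sox10 (1.58) and Id4 (0.562), with 20.3% of genes. Trp63 was at 0.806 times. The same 3 were past it with at most 5% mitochondrial UMIs (22.85% of genes), and Foxa1 and Cited1 alone with each barcode weighted equally (24.2% of genes).

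**Figure D5:**
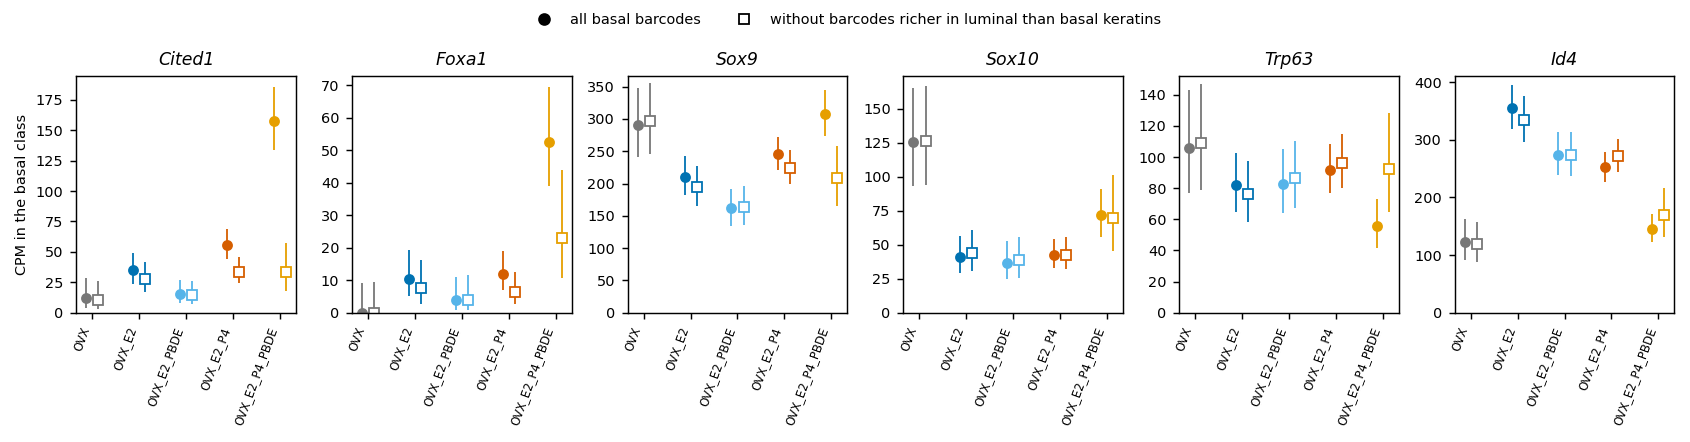
Basal-like cells of each library with all barcodes and without those rich in luminal keratins, as CPM of the lineage factors with 95% counting intervals. In OVX_E2_P4_PBDE, Cited1 is at 158 CPM with all barcodes and 33.4 CPM without them, and Trp63 at 55.8 and 92.5 CPM.

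The companion factors gave the members' setting. Of 24 with enough UMIs, 8 were at least 2-fold higher in L-Hor-like than in L-Alv-like cells in all 4 libraries with E2, beside the 10.2% of genes given above. They included the receptors Esr1 (4.55 to 6.75 times) and Pgr (7.59 to 18.6 times) of estrogen and progesterone, and Stat5a (3.61 to 6.46 times), a mediator of prolactin. Klf4, Hes1, Msx2 and Id3 were also among them. In the other direction there were 7 of 24, beside 5.45% of genes, led by Barx2 (18.2 to 38.0 times) and Tfap2c (9.26 to 26.3 times), with Nfib, Cebpb, Klf5, Lmo4 and Srf. Of these, Tfap2c and Cebpb were higher still in Basal-like cells, at 1.72 to 3.14 and 1.04 to 1.91 times the L-Alv-like level. Lmo4, Sox4 and Egr2 were 2-fold higher in Basal-like than in both luminal classes, 3 of 27 beside 2.98% of genes, and Grhl1, a grainyhead factor of epithelia, was 2-fold lower, 1 of 27 beside 0.725% of genes.

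Between treatments, Cebpb, a bZIP factor of alveolar growth, was past 1.5-fold in all 3 lineages in the same pair of comparisons. It was at 3.95 (L-Hor-like), 3.47 (L-Alv-like) and 2.88 (Basal-like) times the E2 level with P4 added, and at 2.71, 2.37 and 3.02 times with PBDEs added to E2. With PBDEs added to E2 and P4 the ratios were 0.979, 1.19 and 0.993. The comparisons with P4 and with PBDEs both use OVX_E2, where Cebpb was at 73.6, 260 and 391 CPM. Cebpb was also among the companion factors past 1.5-fold with E2 against vehicle in Basal-like cells, though not in L-Hor-like cells. Whether OVX_E2 is unusual for Cebpb was not tested. With E2 against vehicle in L-Hor-like cells, 10 of 25 companion factors were past 1.5-fold, all lower, among them Esr1 (0.551, 0.434 to 0.705) and Id2 (0.257, 0.208 to 0.317). Of all genes 24.2% were past it lower and 6.77% higher, around the median of -0.24 on the log2 scale given above. These companion ratios are without size factors, which raised the member ratios of this class and comparison by 0.29 on the log2 scale. How many companion factors stay past 1.5-fold with size factors is not given. Id2, a helix-loop-helix inhibitor related to Id4, was at 1.92 times in L-Hor-like cells with P4 and at 0.214 times (0.166 to 0.272) with PBDEs added to E2 and P4.

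The genes whose profiles over the 35 class-by-library sums were most like those of the members were sought among 10460 genes. By Pearson correlation of log2(CPM + 1), they were Tmem56 (0.97) and Prlr (0.958) for Foxa1, Cdo1 (0.983) and Stc2 (0.980) for Cited1, and Enho (0.945) and Slc7a2 (0.925) for Tbx3. For Gata3 they were Ezr (0.956) and Sytl1 (0.948), and for Sox9 Stard10 (0.973) and Mpzl2 (0.968). For Elf5 they were Plet1 (0.948) and the milk gene Csn3 (0.946), for Ehf Slc28a3 (0.948) and Plet1 (0.935), and for Sox10 Lcn2 (0.954) and Chil1 (0.926). Speer4e (0.956) and the smooth muscle actin gene Acta2 (0.955) were closest to Trp63, and Nexn (0.948) and Ppp1r14a (0.918) to Id4. Prlr, Csn3, Lcn2 and Acta2 were among the markers that named the classes. Among pairs of members, Foxa1 and Cited1 (0.952), Elf5 and Ehf (0.909), Gata3 and Sox9 (0.909) and Tbx3 and Cited1 (0.860) had the highest values.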

How the data were processed

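UMI counts per gene and barcode, as deposited by the authors, are whole numbers without normalization from the filtered output of 10x Chromium 3′ v2 libraries. The submitters' processing notes name Cell Ranger 2.0.0 and mm10, and reads were not processed again here. Barcodes with at least 500 genes, at least 1000 UMIs and at most 10% mitochondrial UMIs were kept (14317 of 14344).

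Each library was clustered alone in Seurat 5.3.0 (R 4.3.3) with 2000 variable genes, from which the 10 members and 43 companion factors had been removed, 10 principal components and 20 neighbours. The resolution was 0.3 in OVX and 0.5 elsewhere. Clusters were named from 52 markers by a score (the mean of each marker's level over its highest level among clusters) of at least 0.25, or 0.5 for basal, 0.2 for non-epithelial types, and for cycling by at least 50% of barcodes with at least 2 UMIs of cycling markers. These limits were set after the clusters had been seen. No doublet caller was applied in the reported values, and leaving out the 20% of barcodes with the highest Scrublet score (scanpy 1.11.5) was an alternative.

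UMIs were summed per class and library and given per 1000000 UMIs (CPM), with exact Poisson 95% intervals and exact conditional binomial intervals of ratios (scipy 1.17.1), and shares have Clopper-Pearson intervals. All cover counting error only, since UMIs of a library are not independent animals. With 1 library per group there is no test. A ratio is counted past 1.5-fold (treatments) or 2-fold in all 4 libraries with E2 (lineages) when both classes together have at least 50 UMIs and each class has at least 40 barcodes. Comparisons share libraries (OVX_E2 in 3 of the 4) and are not independent. OVX_E2_P4 serves both the comparison with P4 and that of PBDEs on E2 with P4. The scripts were checked on simulated counts. The members, the companion list and the markers were chosen with earlier results of these data known. The named genes are the members, companion factors past a fold (1 is not reported here), and the 2 genes most correlated with each member.

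A cluster of 21 barcodes of OVX_E2_P4_PBDE was left unnamed. The alternatives were another resolution, a mitochondrial limit of 5%, Scrublet scores, median-of-ratios size factors, equal weight per barcode, subtraction of fibroblast-like CPM, minimums of 10 and 200 UMIs, and all epithelial barcodes as 1 class. Subtraction of fibroblast-like CPM took no account of the different depth of the classes.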

Additional observations from a re-analysis of the deposited data

Results flagged for a closer look

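PBDEs had ratios on either side of 1 on E2 and on E2 with P4 for 4 members, a difference that was not tested with 1 library per group. Ehf in L-Hor-like cells was at 1.66 times the level without PBDEs on E2 and at 0.644 times on E2 with P4. Cited1 in L-Alv-like cells was at 0.512 and 1.04 times. Sox10 in Basal-like cells was at 0.898 and 1.69 times, and Trp63 in Basal-like cells at 1.01 and 0.609 times, the latter in the class with many luminal keratin barcodes. For each of these members at least 1 ratio had a counting interval that held 1, and for Ehf both did. Trp63 on E2 with P4 also turned when each barcode was weighted equally.

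Members were also counted outside the epithelium, in classes that no comparison uses. Sox9 was at 341.5 CPM in endothelial cells of OVX_E2_P4, of which 55 of 62 UMIs came from 1 barcode that had 18 Krt18 and 7 Pecam1 UMIs, where the class median was 3 Krt18 UMIs. Sox9 was at 73.2 CPM in hematopoietic cells of OVX_E2_PBDE and at 96.2 CPM in those of OVX_E2_P4. Cited1 was at 135.5 CPM in hematopoietic cells of OVX_E2_P4, with 37 of 100 UMIs in 1 barcode of 22715 UMIs that had 63 Krt18 UMIs. The part of droplets with more than 1 cell in these values was not tested.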

How the results depend on the processing

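No paired analysis was possible because each group has 1 library. The reported counts were 6 members at least 2-fold apart between both luminal lineages, 2 above both in Basal-like cells, and 3, 5, 3 and 10 past 1.5-fold for E2 (over L-Hor-like and Basal-like cells), for P4, for PBDEs on E2 and for PBDEs on E2 with P4 (over 3 lineages each). Of 765 recomputed values of the ratios between lineages and of the treatment ratios past 1.5-fold, 692 stayed inside the reported counting interval, 71 left it in the same direction and 2 turned, Trp63 in Basal-like cells with PBDEs on E2 and P4 (1.03 with each barcode weighted equally) and Cited1 in Basal-like cells with P4 (0.817 with fibroblast-like CPM subtracted). The subtraction behind the turned Cited1 ratio took no account of depth, which differs between Basal-like and fibroblast-like barcodes. The same 6 and 2 members were counted between lineages at a resolution of 1.0, with at most 5% mitochondrial UMIs, with size factors, with equal weight per barcode, with fibroblast-like CPM subtracted and with a minimum of 10 UMIs. A minimum of 200 UMIs gave 3 and 0, and leaving out the highest Scrublet scores gave the same 6 and 1 in Basal-like cells (Id4), where Trp63 had too few UMIs in 1 library. Alternatives chosen after seeing the data left out each E2 library (6 and 2, but 7 between luminal classes, with Gata3, without OVX_E2_P4) or luminal keratin barcodes (6 and 2, the latter over 3 libraries, since 38 Basal-like barcodes remained in OVX_E2_P4_PBDE).

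Counts for treatments moved more. The share of all genes past 1.5-fold in a class and comparison was 9.88 to 39.1% as reported. It was 18.3 to 47% with a minimum of 10 UMIs and 5.06 to 44.2% with one of 200. With fibroblast-like CPM subtracted it was 20.4 to 37.3%, and with all epithelial barcodes as 1 class 7.99 to 23.3%. At a resolution of 1.0 they were 3 for P4 and 6 for PBDEs on E2, and with at most 5% mitochondrial UMIs 2 for P4, 7 for PBDEs on E2 and 6 for PBDEs on E2 with P4. Without the highest Scrublet scores they were 2 for P4 and 6 for PBDEs on E2 with P4. With equal weight per barcode they were 0 for PBDEs on E2 and 6 for PBDEs on E2 with P4, and with fibroblast-like CPM subtracted 3 for P4. A minimum of 10 UMIs gave 6 for E2, 9 for P4 and 9 for PBDEs on E2, and one of 200 UMIs gave 0 for P4, 1 for PBDEs on E2 and 3 for PBDEs on E2 with P4. With all epithelial barcodes as 1 class they were 5 for E2, 0 for P4, 0 for PBDEs on E2 and 3 for PBDEs on E2 with P4. Without luminal keratin barcodes they were 3 for P4 and 5 for PBDEs on E2 with P4, the latter because the Basal-like comparison could not be made. The minimums test other numbers of genes by construction, and for the other settings the cause was not tested. Depth limits Elf5, Ehf and Sox10 in L-Hor-like cells, Foxa1 and Tbx3 in L-Alv-like cells, and Trp63 and Id4 in both classes. All of these rest on under 100 UMIs per library. With P4, and with PBDEs on E2 and P4, Elf5, Ehf and Sox10 in L-Hor-like cells reached 50 UMIs mostly through OVX_E2_P4. Median-of-ratios size factors raised the treatment ratios by 0.03 to 0.29 on the log2 scale, which turned 5 member ratios close to 1: with P4 Gata3 (1.05) and Tbx3 (1.05) in alveolar cells, and with PBDEs on E2 Gata3 (1.09) in hormone-sensing and Ehf (1.04) and Sox9 (1.07) in alveolar cells.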
